A study of Mus musculus with 27 samples.

Results

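Islets captured 4 h after an injection of 4-hydroxytamoxifen were compared with islets of untreated mice, across all genes of the array. This comparison has 6 of the 27 arrays in the series: the 3 arrays titled as 4 h after 4OHT and the 3 titled as untreated. Both groups came from mice with a pair of transgenes under an insulin promoter, MycER and BclXL, so that the untreated mice carried them too. MycER is a fusion of Myc with the hormone-binding part of the estrogen receptor, which is inactive until the drug binds, and BclXL is a protein that protects cells from apoptosis. The promoter places both in beta cells, while the captured tissue also holds other islet cells, vessels and adjoining tissue. The labels name no group that received the carrier alone and none without MycER, so effects of the injection, of the drug and of MycER cannot be told apart. For ages, doses and strains the sources used here give nothing. Replicates are numbered, but the labels do not say that they are separate mice, and the p-values then measure only the spread between these arrays.

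The array is an Affymetrix array of 12422 probe sets after the controls were set aside, with 8251 genes that have a probe set of their own. Where a gene had several, the one with the highest mean over all 27 arrays stood for it. Levels are log2 values, so that a difference of 1 is a 2-fold change. Array medians were between 6.91 and 7.01. Across probe sets the untreated arrays correlated with each other with r between 0.9779 and 0.9844, and the 4 h arrays with r between 0.9834 and 0.9885. Insulin 2 (Ins2) read 13.83, 13.74 and 13.88 in the untreated arrays and 13.35, 13.91 and 13.85 at 4 h, near the top of the scale in all 6, as did amylin (Iapp) at 12.44 to 12.86. RNA level in a captured islet joins the number of cells of a type with the RNA in each, and these cannot be told apart here.

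Myc is a transcription factor that binds DNA as a pair with Max, at the E-box CACGTG among other sites. In many tissues its activity goes with RNA of ribosome assembly, nucleotide synthesis, amino acid uptake and entry into the cell cycle. Max also pairs with the Mxd proteins and with Mxi1, which repress. Beta cells rely on Pdx1 and on a large endoplasmic reticulum (ER) in which proinsulin folds before transport through the Golgi to secretory granules.

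At 4 h, 75 genes differed from untreated islets at an adjusted p under 0.05 (limma, Benjamini-Hochberg over all probe sets), which is 0.909% of the genes measured. Of these, 47 rose (0.57% of genes), by 0.57 to 1.71 on the log2 scale, and 28 fell (0.339%), by log2 differences of -0.46 to -2.39. The change was at least 2-fold for 19 genes that rose and 4 that fell. In all 75 the 3 arrays of one group lay wholly above those of the other; this was so for 11.4% of all genes. Over all genes the median difference was -0.02. The plot of the largest changes by array shows the spread behind these calls.

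**Figure D1:**
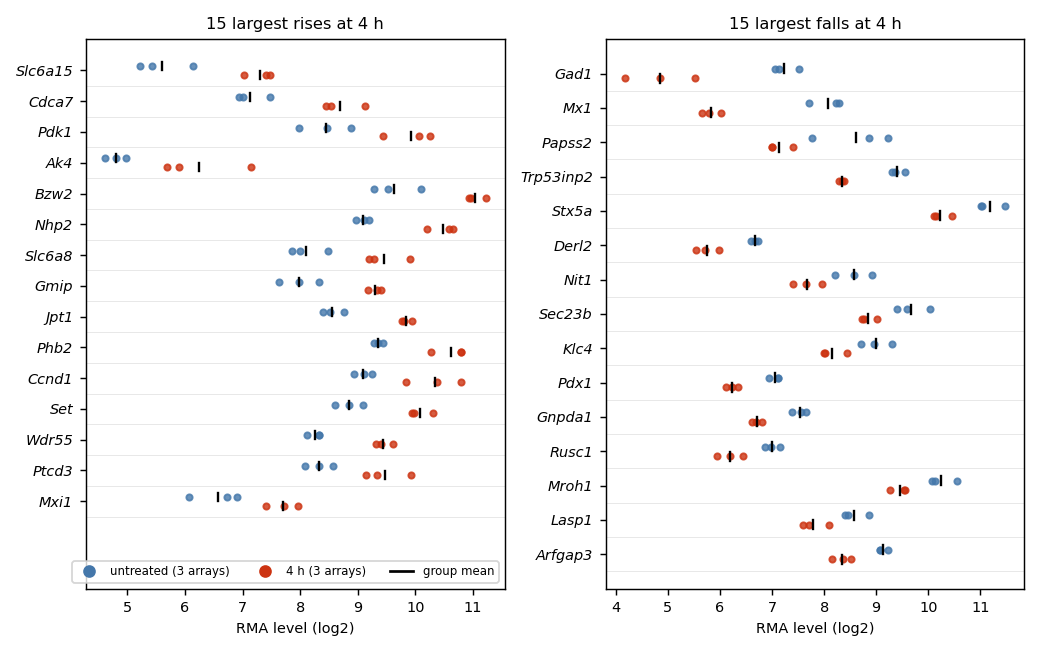
RMA level (log2) of the 15 genes with the largest rise (left) and the 15 with the largest fall (right) at 4 h. Each point is 1 array, blue for untreated and red for 4 h, with 3 arrays in each group, and black bars are group means. No gene has overlapping groups, and the untreated arrays of Papss2 spread from 7.77 to 9.22.

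The number of calls rested on single arrays. Without replicate 3 at 4 h, 16 genes were called, 15 of them among the 75. Without untreated replicate 2 the number was 40, and with the 6 arrays fitted on their own it was 14. The 15 genes that kept their call whichever of the 6 arrays was left out were Slc6a15, Cdca7, Pdk1, Bzw2, Jpt1, Phb2, Nup85, Slc19a1, Bop1, Imp3, Snora7a, Imp4, Fzd9 and St6galnac4, which rose, and Hdlbp, which fell. Each other gene named as risen or fallen lost its call in at least 1 of those fits, and Adsl, Grwd1 and Pdx1 lost it in all 6. None of the 75 changed direction in any of these fits. Of the 15 genes, 5 also kept their call under every other setting, a 2-fold minimum aside. They were Slc6a15, Cdca7, Jpt1, Phb2 and Slc19a1. The rest of the 15, Bzw2 among them, lost it when the 6 arrays were fitted on their own.

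Bzw2 had the smallest p-value of the comparison. It encodes a mimic of the initiation factor eIF5 and lies on chromosome 12, at 36091835 to 36156841 in GRCm38.p6. Its level was 9.53, 9.28 and 10.09 in the untreated arrays and 10.93, 10.97 and 11.22 at 4 h. The 4 h arrays lay close together and all above the untreated ones, a log2 difference of 1.41 ± 0.16 (SE; 2.65-fold; adjusted p = 0.000244). The largest rise was that of Slc6a15, a carrier of branched-chain and other neutral amino acids (chromosome 10, 103367808 to 103419379). It read 5.22, 5.42 and 6.14 in untreated islets and 7.03, 7.47 and 7.40 at 4 h, which is 3.26-fold (1.71 ± 0.295; adjusted p = 0.00564). Cdca7, a Myc-responsive nuclear protein linked to cell division (chromosome 2, 72476187 to 72486892), read 7.0, 6.94 and 7.47 and then 8.44, 8.54 and 9.12. The lowest 4 h array was well above the highest untreated one, and the difference was 1.56 ± 0.255 (2.96-fold; adjusted p = 0.00355).

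Of the pathway lists, that of ribosome biogenesis and RNA polymerase I had the most rises by count, and also the most genes measured. Of its 88 genes, 6 rose (6.82%, against 0.57% of all genes) and none fell. The share called was higher in the lists of the Myc network (8.7%), nutrient carriers (8.33%) and nucleotide, polyamine and serine synthesis (7.89%). All lists were written with earlier results of these data known, so these shares are a description and no independent evidence. In the ribosome biogenesis list 77 genes had a higher mean at 4 h, against 3564 of all 8251 genes. The list median was 0.33, and it was between 0.27 and 0.41 with another normalization or filter, with trend and robust options, or with 1 array left out. In 29 members the 4 h arrays were all above the untreated ones and in none all below; over all genes these shares were 5.04% and 6.36%. At an unadjusted p under 0.05, 38 of the 88 were higher and none lower, against 4.3% and 5.38% of all genes (9.68% in both directions).

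Within the list, the members were grouped by the step they serve. The box H/ACA and box C/D particles modify ribosomal RNA, and all 7 measured members had a higher mean, with a median of 0.34. Nhp2, a core protein of the H/ACA particle, rose from 9.11, 8.97 and 9.20 to 10.59, 10.20 and 10.65. That is 2.61-fold (1.39 ± 0.24; adjusted p = 0.00591), with every 4 h array far above the untreated ones. Without replicate 3 at 4 h the adjusted p of Nhp2 was 0.0601. Of 27 genes for small subunit assembly, 3 rose and 22 were higher, with a median of 0.25. Imp3 and Imp4, which join the U3 particle that cuts the ribosomal RNA precursor, rose by 0.87 ± 0.14 (adjusted p = 0.00223) and 0.82 ± 0.125 (adjusted p = 0.0016). Imp4 read 7.62, 7.80 and 7.79 and then 8.80, 8.27 and 8.60. Its second probe set, at a lower level, differed by 0.03. The other member that rose was Utp4, of the processome that assembles on the precursor, at 1.03 ± 0.22 (adjusted p = 0.0284).

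Large subunit assembly had 28 members measured, of which 27 were higher, with a median of 0.44. Bop1, part of a complex that processes the large subunit's RNA, read 8.60, 8.12 and 8.01 in untreated islets and 9.21, 9.19 and 9.24 at 4 h. The 4 h arrays were nearly equal, and the rise was 1.96-fold (0.97 ± 0.14; adjusted p = 0.00122). A second Bop1 probe set, at a lower level, differed by -0.03, and the call was lost when the probe sets were averaged. Rrp1b, a nucleolar protein, rose by 1.02 ± 0.24 (adjusted p = 0.0424), and its call was lost with array weights. Las1l, an endonuclease of the same pathway, and Nop16 differed by 0.89 ± 0.25 (adjusted p = 0.101) and 0.91 ± 0.28 (adjusted p = 0.151) and were not called. Limma called no gene of RNA polymerase I, the enzyme that makes ribosomal RNA, or of its factors, while 7 of 12 were higher at an unadjusted p under 0.05 and the median was 0.44. Its second largest subunit, Polr1b, had the largest difference of the 12, at 0.95 ± 0.30 (adjusted p = 0.172). The RNA exosome and RNase P genes, which trim RNAs, had the smallest median, 0.08 over 7 genes.

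The nucleolar proteins nucleolin (Ncl) and nucleophosmin (Npm1) were not called. Nucleolin read 9.92, 10.67 and 10.95 untreated and 11.25, 10.60 and 11.43 at 4 h, so the groups overlapped (0.58 ± 0.26; adjusted p = 0.528). Nucleophosmin differed by 0.39 ± 0.285 (adjusted p = 0.94). The heat map of the list by array shows the 4 h columns against the untreated ones. Replicate 1 at 4 h is the palest of the 3 in many rows.

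**Figure D2:**
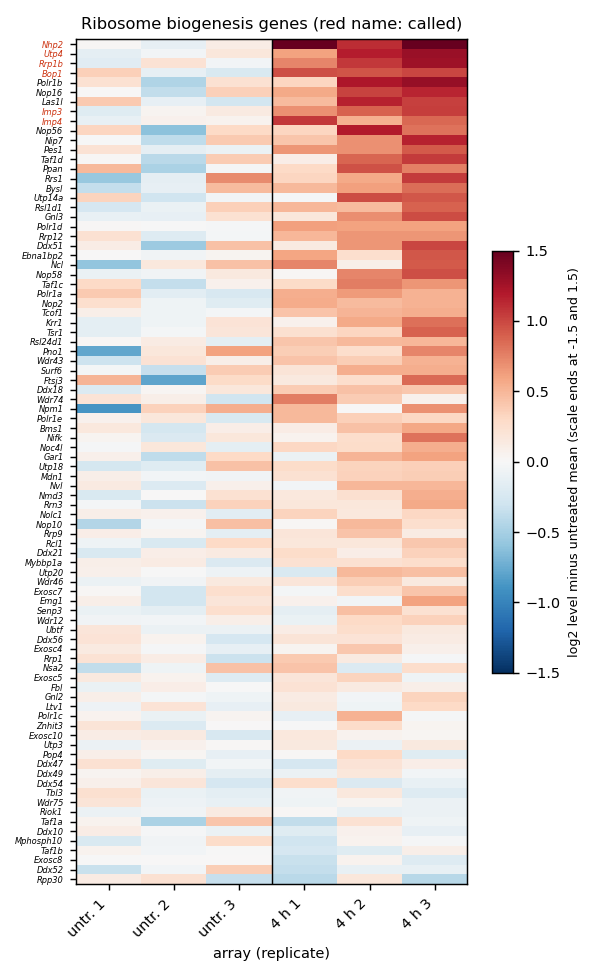
Level of each of the 88 ribosome biogenesis genes in each array, minus the gene's untreated mean (log2, colour scale ending at -1.5 and 1.5), sorted by the 4 h difference. Columns are the 3 untreated and the 3 arrays at 4 h, and red names mark the 6 genes called, with Nhp2 at the top.

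Cytosolic ribosomal proteins did not share these differences. None of the 32 measured was called by limma, nor had any an unadjusted p under 0.05; 11 were higher and 21 lower, and the list median was -0.05, with a range of -0.09 to 0.01 over the same settings. In no member did the groups separate. The largest difference was that of Rpl32 (0.30 ± 0.23; adjusted p = 0.966).

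Promoter sequence was available from RefSeq (GRCm38.p6) for 36 of the 47 genes that rose and 24 of the 28 that fell. Each window ran from 250 bases before a gene's start to 50 after it. The E-box CACGTG, which reads the same on both strands, was in a window of 9 of the 36 risen genes (25.0%) and of 6 of the 24 fallen genes (25.0%), against 753 of 6572 measured genes with a window (11.5%). Among ribosome biogenesis genes it was 16 of 78 (20.5%), and among genes of ER folding 3 of 38 (7.89%). Counted by window, since some genes have several, the shares were 17.6% for risen genes, 18.9% for fallen genes and 9.55% for all measured genes. A match is a run of letters and not a measured binding site. The windows shown belong to 3 genes that rose and 2 that fell, with the E-box in capitals and 100 bases printed 5′ to 3′ on the gene's strand. They show that the motif stood before the start of genes in both directions. Each distance is to the transcript start of that window, which is the outer end of the annotated span for Imp4 and Pdx1 and lies 16 bases inside it for Bzw2, 540 for Hdlbp and 3225 for Ak4. Ak4 has 4 windows and Hdlbp 3, with the E-box in 1 of them. The E-box began 91 bases before the start of Bzw2 (chr12:36156864-36156963, minus strand), 121 before that of Imp4 (chr1:34439661-34439760, plus strand) and 214 before that of the mitochondrial adenylate kinase Ak4 (chr4:101419453-101419552, plus strand). It began 51 bases before the start of Pdx1 (chr5:147269997-147270096, plus strand) and 30 before that of Hdlbp (chr1:93478378-93478477, minus strand).
Bzw2: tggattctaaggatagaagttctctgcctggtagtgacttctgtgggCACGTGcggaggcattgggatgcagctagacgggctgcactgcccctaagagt
Imp4: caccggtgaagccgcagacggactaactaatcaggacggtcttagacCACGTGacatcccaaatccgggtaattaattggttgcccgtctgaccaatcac
Ak4: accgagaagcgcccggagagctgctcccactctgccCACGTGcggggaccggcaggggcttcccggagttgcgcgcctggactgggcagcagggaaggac
Pdx1: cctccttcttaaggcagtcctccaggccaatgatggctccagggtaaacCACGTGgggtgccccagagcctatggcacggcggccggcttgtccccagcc
Hdlbp: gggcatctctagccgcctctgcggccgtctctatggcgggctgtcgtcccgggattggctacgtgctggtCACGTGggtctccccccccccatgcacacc

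Of 64 translation factors and tRNA synthetases, 48 had a higher mean, and the median was 0.13. Among the 64 genes there were 2 rises (3.12%, against 0.57% of all genes). Beside Bzw2 the other was Eif4ebp1, which holds back the cap-binding factor eIF4E and is itself switched off by mTOR. It read 7.65, 7.38 and 7.24 and then 8.69, 7.93 and 8.50 (0.95 ± 0.17; adjusted p = 0.00644), and its adjusted p was 0.0622 without replicate 3 at 4 h. The initiation factor gene Eif3j1 differed by as much, 1.15 ± 0.32, but was not called (adjusted p = 0.101). Eif4e itself differed by 0.07 ± 0.26 (adjusted p = 1) on 1 probe set and by 0.47 ± 0.19 (adjusted p = 0.411) on the other.

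RNA processing, splicing and export showed a similar shift with few calls. Of 71 genes, 55 were higher, the median was 0.17, and 1 rose: Lsm7, a ring protein of splicing and mRNA decay (0.77 ± 0.17; adjusted p = 0.029). That 1 rise was 1.41% of the list, against 0.57% of all genes. In 15 members the 4 h arrays were all above the untreated ones, and in none all below, against 5.04% and 6.36% of all genes. The splicing factor Srsf1 and the RNA methyltransferase Nsun2 differed by 0.96 ± 0.31 (adjusted p = 0.188) and 0.77 ± 0.20 (adjusted p = 0.0688).

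Mitochondrial ribosome and import genes held 2 rises among 70 (2.86%, against 0.57% of all genes), with a median of 0.08. Mrps26, a protein of the small mitochondrial ribosomal subunit, rose by 0.74 ± 0.17 (adjusted p = 0.0399), with 3 near equal 4 h arrays at 9.38, 9.38 and 9.33 against 8.95, 8.38 and 8.55. Timm23, the channel of the inner membrane translocase, rose by 0.63 ± 0.14 (adjusted p = 0.0356). Ptcd3, which associates with the mitochondrial ribosome and was in no list, rose 2.2-fold (1.14 ± 0.22; adjusted p = 0.0131). Of 65 genes for oxidative phosphorylation limma called none, and none had an unadjusted p under 0.05 or separate groups; the median was -0.03.

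Nucleotide, polyamine and serine synthesis had 3 rises among 38 genes and a median of 0.135. Ctps makes CTP, and it read 10.30, 10.01 and 10.30 untreated and 10.68, 11.06 and 11.14 at 4 h (0.76 ± 0.175; adjusted p = 0.0398). Adsl, a purine synthesis enzyme, rose by 0.97 ± 0.23 (adjusted p = 0.048). Ak4 read 4.61, 4.81 and 4.98 and then 5.89, 5.69 and 7.14 (1.44 ± 0.30; adjusted p = 0.0214), with replicate 3 far above the other two. A second Ak4 probe set differed by 0.13, and the adjusted p of the first reached 0.185 when 1 array was left out. Psat1, of serine synthesis, missed the threshold narrowly at 1.15 ± 0.275 (adjusted p = 0.0519) with groups that did not overlap. The usual Myc target genes of this list, ornithine decarboxylase (Odc1) and Cad, differed by 0.40 ± 0.21 (adjusted p = 0.693) and 0.25 ± 0.11 (adjusted p = 0.482).

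Carriers of nutrients had 4 rises among 48 genes (8.33%, against 0.57% of all genes), while the list median was 0.02. Beside Slc6a15 these were Slc6a8, Slc37a4 and Slc19a1. Slc6a8, the creatine transporter, read 8.48, 7.85 and 7.99 and then 9.20, 9.28 and 9.91 (1.36 ± 0.28; adjusted p = 0.0203). Its second probe set differed by -0.03, and with the probe sets averaged Slc6a8 was not called. Slc37a4 carries glucose 6-phosphate into the ER and rose by 1.01 ± 0.22 (adjusted p = 0.0253), and Slc19a1 carries reduced folate and rose by 0.98 ± 0.16 (adjusted p = 0.00355). The large neutral amino acid carrier Slc7a5 differed by 0.62 ± 0.17 with separate groups and was not called (adjusted p = 0.0888).

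In sugar and lipid metabolism single genes rose without their lists. Pdk1, the kinase that shuts off pyruvate dehydrogenase, read 8.46, 7.98 and 8.88 untreated and 9.44, 10.26 and 10.07 at 4 h. The rise was 2.8-fold (1.48 ± 0.245; adjusted p = 0.00398), in a glycolysis list of 40 genes with a median of -0.03 and no other call. Lactate dehydrogenase A (Ldha) differed by -0.01 ± 0.44. Elovl6, which lengthens fatty acids, rose by 0.86 ± 0.18 (adjusted p = 0.0236), and its second probe set was called in the same direction. It was the only call among 24 genes of cholesterol and lipid synthesis, of which 17 had a lower mean. Acsl5, an acyl-CoA synthetase outside that list, rose by 0.57 ± 0.11 (adjusted p = 0.0131).

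In the Myc network 2 of 23 genes rose, and the list median was 0.03. Mxi1, a Max partner that represses, read 6.07, 6.91 and 6.73 and then 7.72, 7.41 and 7.96 (1.13 ± 0.24; adjusted p = 0.0216). The gap between the groups was 7.41 against 6.91. Phb2, a prohibitin that was listed as a Myc-responsive gene, rose from 9.44, 9.28 and 9.36 to 10.80, 10.28 and 10.79 (1.26 ± 0.18; adjusted p = 0.00122). Max differed by 0.46 ± 0.21 (adjusted p = 0.543) and Mxd4 by -0.55 ± 0.42 (adjusted p = 0.964). The mouse's own Myc read 3.52 to 4.53 over the 6 arrays, a level that bacterial control probe sets without a target in the sample also reached, and it was not called (0.23 ± 0.49). The Esr1 probe set with the highest level read 11.94 to 12.23 untreated and 11.68, 11.45 and 11.37 at 4 h (-0.56 ± 0.28; adjusted p = 0.651); whether it reads the transgene was not tested.

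Among cyclins and G1 kinases 1 of 22 genes rose. Cyclin D1 (Ccnd1), which activates Cdk4 and Cdk6 in G1, read 9.10, 8.94 and 9.24 untreated and 9.84, 10.38 and 10.80 at 4 h. Its rise was 2.37-fold (1.25 ± 0.24; adjusted p = 0.0131), and its adjusted p reached 0.127 when 1 array was left out. A second Ccnd1 probe set, at a lower level, differed by 0.09. Cyclin D2 (0.27 ± 0.27), Cdk4 (-0.03 ± 0.19) and the inhibitors Cdkn1a (-0.18 ± 0.20), Cdkn1b (0.07 ± 0.12) and Cdkn2a (0.01 ± 0.22) each had an adjusted p of 1.

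The list of DNA replication had 1 rise, Cdca7, and no other member was called, while the list of mitosis had none. Of 48 replication genes, 40 had a higher mean, and the median was 0.14. The licensing factor Cdt1 differed by 0.71 ± 0.34 (adjusted p = 0.59) and the sliding clamp Pcna by 0.41 ± 0.37 (adjusted p = 1). None of 49 mitosis genes was called by limma (2 had an unadjusted p under 0.05). Of these, 33 had a higher mean, with a median of 0.03 against -0.02 over all genes. The proliferation marker Mki67 differed by 0.06 ± 0.74. Ranbp1, a partner of the Ran GTPase counted in that list, had its largest difference, 0.997 ± 0.33 (adjusted p = 0.216).

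Several rises were in genes outside every list. Jpt1 read 8.51, 8.40 and 8.76 untreated and 9.94, 9.77 and 9.80 at 4 h, a gap of more than 1 between the groups (1.28 ± 0.18; adjusted p = 0.00122). Set, a histone chaperone and inhibitor of phosphatase 2A, rose by 1.23 ± 0.25 (adjusted p = 0.0176). Another probe set of Set differed by 0.76 ± 0.27 with overlapping groups and was not called (adjusted p = 0.27). The one with the lowest level differed by -0.01. Gmip rose by 1.32 ± 0.27 (adjusted p = 0.0181), and Wdr55, a nucleolar protein, by 1.19 ± 0.20 (adjusted p = 0.00529). Nup85, of the nuclear pore scaffold, rose by 1.01 ± 0.14 (adjusted p = 0.00115), and both of its probe sets were called. Fzd9, a Wnt receptor, had 1 of the smaller rises and small spread, 6.69, 6.45 and 6.45 against 7.17, 7.33 and 7.18 (0.70 ± 0.09; adjusted p = 0.000942). Snora7a, a small nucleolar RNA of the H/ACA kind by the platform annotation, rose from 5.75, 5.87 and 5.5 to 6.55, 6.54 and 6.62 (0.86 ± 0.13; adjusted p = 0.00139). Pak1ip1 and Grwd1, proteins of large subunit assembly that the list did not hold, rose by 0.72 ± 0.15 (adjusted p = 0.0211) and 0.63 ± 0.14 (adjusted p = 0.0322).

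The other rises were between 0.64 and 0.98. Ankrd28 (0.98), a phosphatase 6 subunit, Smoc1 (0.96), a secreted calcium-binding protein, and Psmg2 (0.84), a chaperone of proteasome assembly, were the larger ones with Surf2 (0.83). Tysnd1 (0.80), a peroxisomal protease, Wwc1 (0.79), a protein of the Hippo pathway, and Ptger4 (0.78), a prostaglandin E2 receptor, came next. Smyd5 (0.76), Colgalt1 (0.76), Ubap2 (0.72), Rcc2 (0.66) and the sialyltransferase St6galnac4 (0.64) had adjusted p-values between 0.0016 and 0.0344. Other probe sets of Smyd5 differed by 1.13, which was called, and by 0.02 and -0.03, which were not.

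The largest fall was that of Gad1, which makes the transmitter GABA and is expressed in beta cells (chromosome 2, 70561303 to 70602014). Its level was 7.06, 7.14 and 7.51 in untreated islets and 5.52, 4.85 and 4.17 at 4 h. All 4 h arrays were low, though they spread over more than 1 log2 unit, and the fall was 5.24-fold (-2.39 ± 0.49; adjusted p = 0.0189). Its adjusted p was 0.155 at the highest when 1 array was left out. Mx1, an antiviral GTPase that interferon induces (chromosome 16, 97447035 to 97462906), read 7.70, 8.29 and 8.23 and then 5.65, 6.02 and 5.79. That fall was 4.77-fold (-2.25 ± 0.41; adjusted p = 0.00801, and 0.0601 without replicate 3 at 4 h). Papss2, which makes the sulfate donor PAPS, read 7.77, 8.86 and 9.22 and then 7.40, 6.99 and 6.99 (-1.49 ± 0.32; adjusted p = 0.0276). Untreated replicate 1 was the array nearest to the 4 h group.

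The low levels at 4 h may bound the size of some falls. The 15 bacterial control probe sets averaged 3.57 to 7.31 over the 6 arrays, with a median of 3.96 and the second highest at 5.72. Gad1 at 4 h was below that second highest value. In 17 called genes the lower group mean was under the highest control, Gad1, Mx1, Derl2, Rusc1 and Pdx1 at 4 h and Slc6a15, Ak4, Snora7a, Ptger4 and Grwd1 in untreated islets among them. In 5 called genes it was under the second highest. RMA levels are not compared between genes, so a control does not give the floor of another probe set.

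Pdx1, the factor that maintains beta cell identity and insulin transcription (chromosome 5, 147270097 to 147275848), was the 1 call among 25 beta cell transcription factors. It read 7.12, 6.94 and 7.11 in untreated islets and 6.11, 6.23 and 6.34 at 4 h. The groups were compact and apart, a fall of 1.78-fold (-0.83 ± 0.20; adjusted p = 0.0498). The call lay at the threshold: it was lost in each fit without 1 array (adjusted p = 0.101 to 0.153), with each array centred on its median, with quantile normalization, with array weights and with the Gapdh 3′ minus 5′ signal as a covariate. Of the 25 factors, 21 had a lower mean, against 4666 of all 8251 genes, and the median was -0.12. Nkx2-2 differed by -0.57 ± 0.28 (adjusted p = 0.628), Isl1 by -0.50 ± 0.34 (adjusted p = 0.914) and Neurod1 by -0.19 ± 0.30 (adjusted p = 1), while Sox4 was 0.68 ± 0.285 higher (adjusted p = 0.446).

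Genes of insulin secretion and glucose sensing were a little lower as a list. Of 54, 42 had a lower mean, against 4666 of all 8251 genes. The list median was -0.11, and Gad1 was the 1 call. At an unadjusted p under 0.05, 4 members were lower and none higher, against 5.38% and 4.3% of all genes. Ptprn, a granule membrane protein, read 11.12, 11.18 and 10.95 untreated and 10.69, 10.36 and 9.97 at 4 h (-0.74 ± 0.20; adjusted p = 0.0888). Tyrosine hydroxylase (Th), the first enzyme of dopamine synthesis, had separate groups too (-0.91 ± 0.29; adjusted p = 0.184). Ins2 (-0.11 ± 0.11), Iapp (-0.25 ± 0.17) and the glucose transporter Slc2a2 (-0.24 ± 0.415) were not called, with adjusted p-values of 1, 0.918 and 1.

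ER folding and the unfolded protein response had 1 fall among 47 genes (2.13%, against 0.339% of all genes). A lower mean was seen in 38 members, against 4666 of all 8251 genes. The list median was -0.16, and it was between -0.245 and -0.14 under those settings. In 9 members the 4 h arrays were all below the untreated ones and in none all above, against 6.36% and 5.04% of all genes. Derl2, which helps to draw misfolded proteins out of the ER, fell from 6.59, 6.68 and 6.72 to 5.98, 5.54 and 5.72 (-0.92 ± 0.17; adjusted p = 0.00963). A second Derl2 probe set, at a lower level, differed by -0.07. Creld2, an ER protein induced by unfolded proteins, read 8.78, 8.65 and 8.66 and then 7.94, 7.63 and 8.05, just short of a call (-0.82 ± 0.20; adjusted p = 0.0595).

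The main ER chaperone and the factors of the response were not called. Hspa5, known as BiP, read 9.85, 10.76 and 10.93 untreated and 9.86, 9.16 and 10.04 at 4 h, so that untreated replicate 1 lay among the 4 h arrays (-0.83 ± 0.30; adjusted p = 0.303). Ddit3, the transcription factor CHOP, had separate groups, at 9.31, 8.76 and 8.78 against 8.17, 8.07 and 8.10 (-0.84 ± 0.24; adjusted p = 0.117). Dnajb9, a partner of BiP, differed by -0.88 ± 0.34 (adjusted p = 0.363) and Xbp1 by -0.60 ± 0.24 (adjusted p = 0.393). Atf4, which acts upstream of Ddit3, differed by 0.14 ± 0.13 (adjusted p = 1).

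Falls were also seen in 5 genes of transport between ER and Golgi. Stx5a, the Golgi SNARE that takes up vesicles from the ER, read 11.48, 11.04 and 11.02 and then 10.10, 10.46 and 10.14 (-0.95 ± 0.17; adjusted p = 0.00794). Sec23b, of the COPII coat that buds from the ER, read 9.40, 9.59 and 10.04 and then 8.73, 9.01 and 8.76 (-0.84 ± 0.165; adjusted p = 0.0133). Arfgap3, which uncoats COPI vesicles, fell by 0.78 ± 0.15 on the log2 scale (adjusted p = 0.0133). Gbf1, the exchange factor that activates Arf1 at the Golgi, fell by 0.66 ± 0.14 (adjusted p = 0.02), and Stx18, an ER SNARE, by 0.64 ± 0.115 (adjusted p = 0.00782). All 5 calls were lost without replicate 3 at 4 h. The second probe set of Sec23b, at a lower level, differed by -0.06.

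A list of 82 symbols for this transport was written after these 5 genes had been seen, so it is a description and no independent evidence. Of 62 members measured, 60 had a lower mean at 4 h, against 4666 of all 8251 genes, and the median was -0.24. That count was 52 without untreated replicate 3, and 53 without replicate 2 at 4 h or with acinar and leukocyte marker levels as covariates. Without the 5 called genes, 55 of 57 were lower, with a median of -0.22. The mean level of the 62 genes was 8.74, 8.91 and 8.95 in the untreated arrays and 8.54, 8.56 and 8.65 at 4 h. Kdelr3, a receptor that returns ER proteins, had the largest difference not called, -0.79 ± 0.24 (adjusted p = 0.143). The median was between -0.34 and -0.18 under the other settings, the first without untreated replicate 1 and the second without untreated replicate 3.

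**Figure D3:**
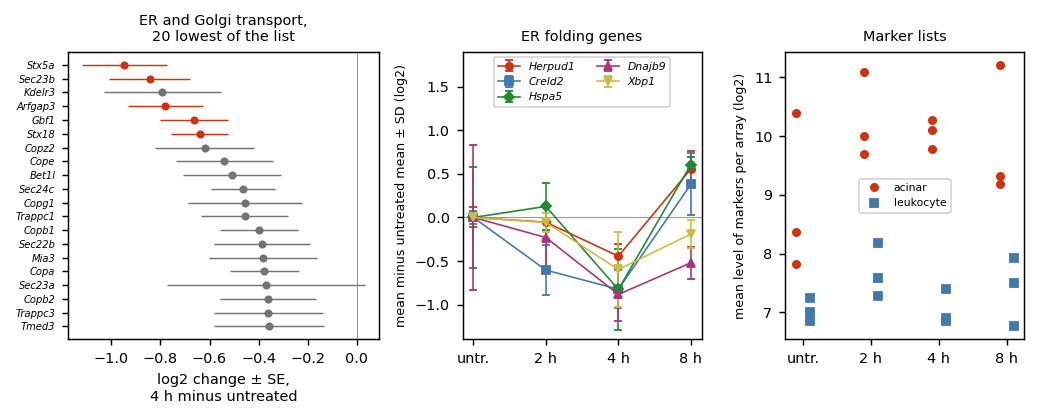
Left, log2 difference at 4 h minus untreated, with its SE, of the 20 lowest genes of ER and Golgi transport (red, called). Middle, mean of 5 ER folding genes minus the untreated mean, with the SD over 3 arrays (log2), where all 5 are lowest at 4 h; right, mean level of acinar and leukocyte markers in each array, where untreated replicates 2 and 3 have the lowest acinar values.

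Other falls were in genes of several kinds. Trp53inp2, which acts in autophagy, read 9.31, 9.55 and 9.36 and then 8.28, 8.34 and 8.38 (-1.07 ± 0.22; adjusted p = 0.0192). Hdlbp, the RNA-binding protein vigilin, read 10.84, 10.55 and 10.66 untreated, and no array at 4 h was above 10.11 (-0.63 ± 0.11; adjusted p = 0.00591). It was the 1 fall that was called in each fit without 1 array. Klc4, a kinesin light chain, fell by 0.83 ± 0.15 (adjusted p = 0.00591), and Mroh1 by 0.80 ± 0.14 (adjusted p = 0.00782), with both Mroh1 probe sets called. A second probe set of Klc4, at a lower level, differed by -0.14 and was not called. The annotated spans of Mroh1 (chromosome 15, 76380438 to 76453039) and of Bop1, which rose (76452988 to 76477249), overlap at their ends. Nit1 (-0.90), Gnpda1 (-0.83), which acts on glucosamine 6-phosphate, Rusc1 (-0.80) and the actin-binding Lasp1 (-0.78) had adjusted p-values between 0.0101 and 0.0289. The remaining falls, of -0.46 to -0.74, were those of Ubxn4, which acts in ER protein degradation, Inpp5j, the ubiquitin ligase Rnf181, Ilvbl, Vps37c of the ESCRT-I complex, the homeobox factor Pbx2, Apba3, the Wnt coactivator Pygo2 and Trpc4ap. Centring each array on its median ended the calls of Ubxn4, Rnf181, Apba3, Pygo2, Trpc4ap, Adsl and Pdx1, and quantile normalization those of Apba3, Trpc4ap, Ilvbl and Pdx1. Array weights ended the calls of Rrp1b, Adsl, Wwc1, Colgalt1, Mrps26, Pygo2, Apba3, Ilvbl, Rnf181 and Pdx1. Averaging the probe sets of a gene ended those of Bop1, Slc6a8, Rcc2, Grwd1, Lasp1 and Rusc1.

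In the p53 pathway and apoptosis list 1 of 40 genes fell. Mdm2, the ubiquitin ligase that removes p53 and is itself a p53 target, read 9.49, 9.36 and 9.75 untreated and 8.93, 8.98 and 8.85 at 4 h (-0.61 ± 0.11; adjusted p = 0.00802). The 3 Gadd45 genes, which respond to stress and DNA damage, did not go one way. Gadd45b was 1.26 ± 0.345 higher (adjusted p = 0.0972), and Gadd45a (-0.61 ± 0.17) and Gadd45g (-0.58 ± 0.18) were lower (adjusted p = 0.11 and 0.158). Bcl2l1, the gene of BclXL, differed by -0.15 ± 0.11 (adjusted p = 0.923).

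Interferon and antigen presentation genes had no call other than Mx1 among 54, with a median of -0.10. Tap1, a peptide transporter for class I presentation, differed by -0.57 ± 0.28 (adjusted p = 0.61). None of 60 immediate early and acute phase genes was called by limma at 4 h (at an unadjusted p under 0.05, 5 were higher and 2 lower); their median was 0.03, while at 2 h it was 0.43. None of 41 proteasome genes was called either (3 higher and 1 lower at an unadjusted p under 0.05), and none of 48 chaperone genes (6 higher and 5 lower). Over all genes, 4.3% were higher and 5.38% lower at that unadjusted p, and both chaperone counts were above these shares. Among the chaperone genes, the heat shock genes Hspa1b and Hspa1a differed by -1.76 ± 0.47 (adjusted p = 0.0888) and -1.54 ± 0.42 (adjusted p = 0.0913). Hspa1b read 5.54, 7.33 and 8.94 in the untreated arrays and 5.5, 5.64 and 5.39 at 4 h, so that untreated replicate 1 was at the 4 h level.

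**Figure D4:**
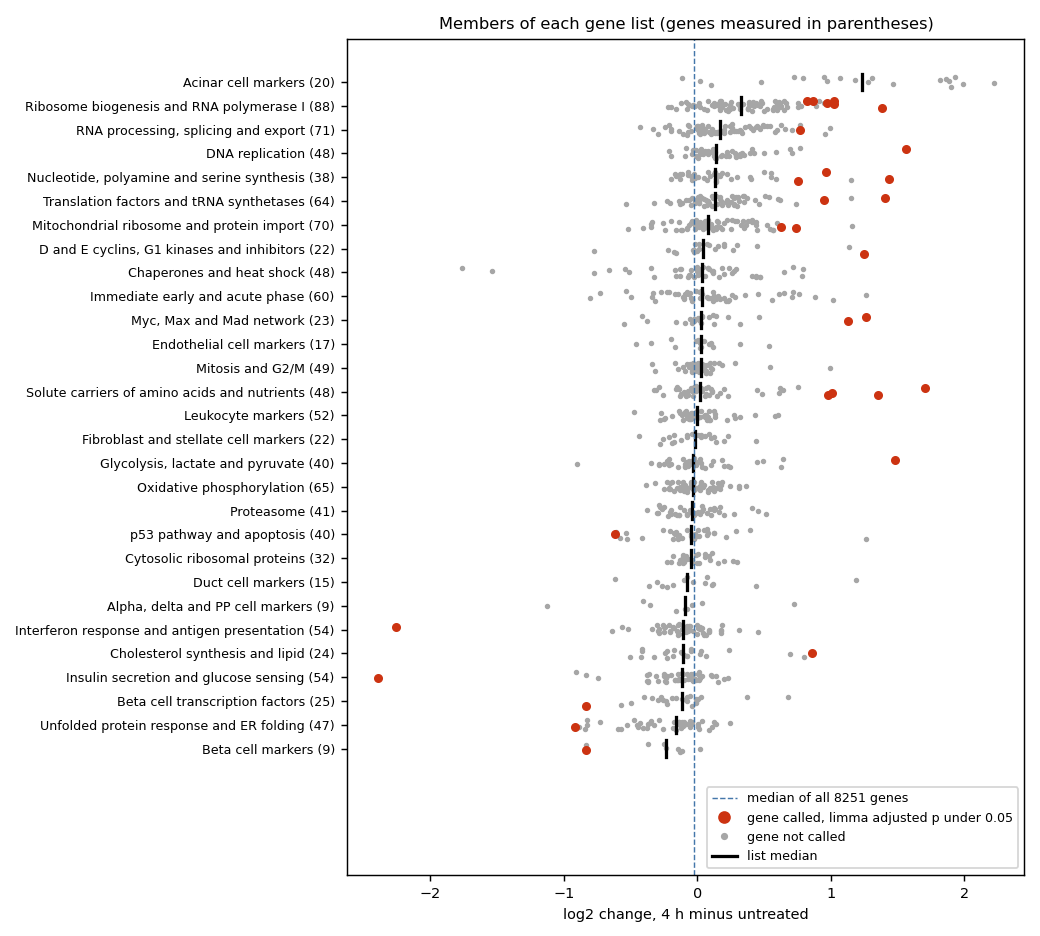
Log2 difference at 4 h minus untreated of every measured gene of 29 lists, sorted by the list median (black bars). Red points are genes called, grey points are not called, and the dashed line is the median of all 8251 genes at -0.02; ribosome biogenesis has the highest median of the pathway lists, at 0.33.

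Markers of acinar cells, which make digestive enzymes and surround the islets, differed between the groups. Of 20 measured, 19 had a higher mean at 4 h, with a median of 1.23, and limma called none (2 were higher at an unadjusted p under 0.05). Their mean level was 10.4, 7.82 and 8.36 in the untreated arrays and 10.1, 9.77 and 10.3 at 4 h, so untreated replicates 2 and 3 were low and replicate 1 was not. Clps, colipase, and Sycn, a protein of the enzyme granule, showed this pattern, with Sycn at 11.69, 7.09 and 8.48 untreated and 11.15, 10.70 and 11.19 at 4 h. The median was 2.25 without untreated replicate 1 and 0.61 without untreated replicate 2.

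With acinar and leukocyte marker levels as covariates, 66 of the 75 genes were still called and 100 genes were called in all. The calls of Adsl, Colgalt1, Papss2, Lasp1, Ubxn4, Rnf181, Apba3, Pygo2 and Trpc4ap were lost there. Leukocyte markers were 25 higher and 27 lower of 52, with a median near 0, and none had an unadjusted p under 0.05. Of 9 beta cell markers measured, 8 had a lower mean at 4 h, against 4666 of all 8251 genes. These markers had a median of -0.24, which was between -0.365 and -0.135 with another normalization or filter or with 1 array left out. Pdx1 was the 1 call among them, and the prohormone convertase Pcsk1 differed as much (-0.83 ± 0.37; adjusted p = 0.505). The duct, endothelial, fibroblast and other islet cell lists had no call by limma; at an unadjusted p under 0.05, 1 duct gene was lower, 1 endothelial gene higher and 1 lower. Glucagon (Gcg), of alpha cells, varied from 5.46 to 9.24 over the 6 arrays (-1.12 ± 0.88; adjusted p = 0.974). The 3′ minus 5′ signal of the Gapdh control, a sign of RNA quality and amplification, was 4.75 ± 1.02 (SD) in untreated arrays and 4.43 ± 0.785 at 4 h, and 73 of the 75 calls held with it as a covariate.

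The 4 h group was also set against its neighbours in time, by direct differences of group means that leave out the untreated mean, though all arrays enter the fit's estimate of the spread. Between 2 h and 4 h no gene was called (limma), while 542 genes (6.57%) had an unadjusted p under 0.05. Without replicate 3 at 2 h the number called was 30, and with array weights it was 1. Among the 75 genes, the largest difference from 2 h was that of Gad1, which averaged 6.92 ± 0.27 (SD) at 2 h and 4.85 ± 0.675 at 4 h (-2.08 ± 0.49; adjusted p = 0.62). Papss2 averaged 8.20 ± 0.13 at 2 h and 7.13 ± 0.24 at 4 h (-1.08 ± 0.32; adjusted p = 0.725). Ccnd1 averaged 9.47 ± 0.42 at 2 h and 10.34 ± 0.48 at 4 h (0.87 ± 0.24; adjusted p = 0.725). The 75 genes were chosen by values of the same 4 h arrays, so this choice may enlarge their differences from 2 h.

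Between 4 h and 8 h, 2 genes were called, 0.0242% of genes (7.17% had an unadjusted p under 0.05), and both encode ER proteins that unfolded proteins induce. Herpud1, which acts in ER-associated degradation, averaged 9.48 ± 0.115 (SD) untreated, 9.42 ± 0.20 at 2 h, 9.03 ± 0.14 at 4 h and 10.03 ± 0.205 at 8 h. The step from 4 h to 8 h was 1.0 ± 0.155 (SE; adjusted p = 0.0249). Creld2 averaged 8.70 ± 0.07, 8.09 ± 0.28, 7.87 ± 0.22 and 9.08 ± 0.36 at the same times, a step of 1.20 ± 0.20 (adjusted p = 0.0372). Neither was called without replicate 1, 2 or 3 at 4 h, or without replicate 1 or 2 at 8 h (no gene was), and 4 genes were called without replicate 3 at 8 h. Hspa5 moved by as much, 1.43, but was not called (adjusted p = 0.274).

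Levels of the 75 genes at other times are given as group means, since each of those comparisons uses the same untreated arrays. The median of the 47 risen genes, minus untreated, was 0.76 at 2 h, 0.96 at 4 h, 0.85 at 8 h and 0.30 at 24 h. That of the 28 fallen genes was -0.54, -0.78, -0.57 and -0.28. Bzw2 averaged 10.94 at 2 h, 11.04 at 4 h, 10.99 at 8 h and 10.53 at 24 h, against 9.63 untreated. Trp53inp2 averaged 8.84, 8.33, 7.99 and 9.18 at those times, against 9.41. Pdx1 averaged 6.48, 6.23, 5.92 and 6.77, against 7.06, and of these times was lowest at 8 h. After 21 days of dosing the median was 0.30 for the 47 risen genes and -0.67 for the 28 fallen genes, against the same untreated arrays.

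**Figure D5:**
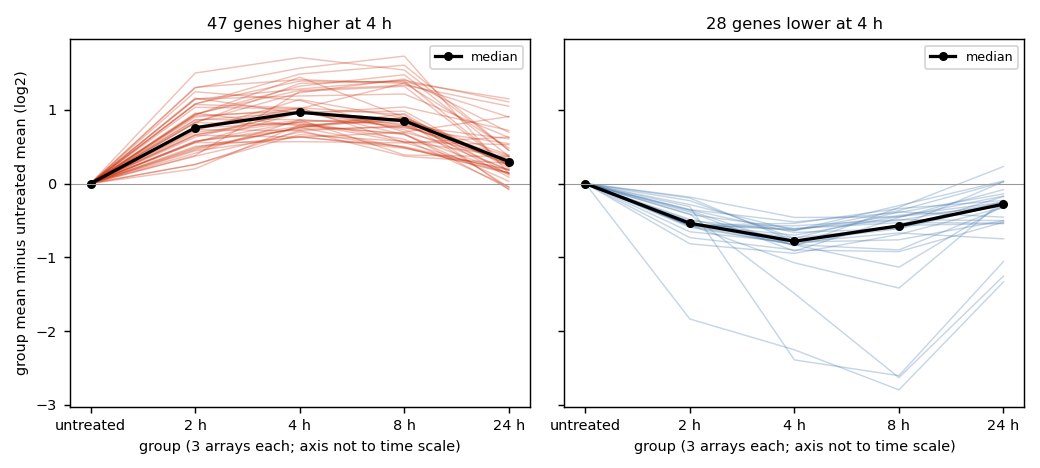
Group mean minus untreated mean (log2; 3 arrays a group) of the 47 genes that rose (left) and the 28 that fell at 4 h (right), in untreated islets and 2, 4, 8 and 24 h after injection. Thin lines are genes and the black line is their median, which is farthest from 0 at 4 h, the time by which the genes were chosen.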

How the data were processed

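RNA of laser-captured mouse islets was measured on Affymetrix arrays, 1 per sample. Per the labels, total RNA went through 2 rounds of linear amplification and was labelled with biotin. The deposited values are log2 levels from RMA, per the submitters' processing notes, with version and settings not given in the sources used here; their range and even medians show the log2 scale. RMA normalizes between arrays and summarises the probes of a set, so levels are compared between arrays and not between genes. No scanner intensities were used here, and the number of arrays, 3 a group, limits the precision.

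The deposited table has 12488 probe sets, of which 66 Affymetrix controls were left out and 12422 tested. By the platform annotation 10833 have 1 gene symbol, 396 several and 1193 none; 2073 of the 8251 genes have more than 1 probe set. Coordinates come from the GRCm38.p6 gene table, where 10817 probe sets matched by Entrez identifier. Among the called genes, only Ilvbl has a probe set whose name marks shared or relaxed probes (_f_at). Of 24 other probe sets of 21 called genes, 17 went the same way and 5 were called.

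Differences were tested with limma 3.58.1 under R 4.3.3 (lmFit and eBayes, two-sided) over all 27 arrays with 9 group means and 18 residual degrees of freedom, and Benjamini-Hochberg adjustment over the probe sets. Calls were made where the adjusted p was under 0.05. Errors written after a log2 difference are the fit's SE, and those after a group mean are SDs. With 3 arrays against 3, a permutation of 1 gene cannot give p under 0.1 and was not used. The fit was tested on simulated data. Lists are described by counts and medians, with no set test; 1172 of their 1518 symbols matched. Any called gene may be named, with the 15 largest changes each way by array, up to 3 members of a list not called, and a short panel. The comparison, lists and panel were chosen with earlier results of these data known.

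Alternatives were each array centred on its median, quantile normalization, the dimmest 40% of probe sets removed, eBayes with trend and robust options, array weights, only the compared arrays, a replicate block, averaged probe sets per gene, a 2-fold minimum, acinar and leukocyte markers or the Gapdh 3′ minus 5′ signal as covariates, and each array left out in turn.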

Additional observations from a re-analysis of the deposited data

Results flagged for a closer look

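Herpud1 and Creld2 stood out because the direct test between treated groups found a difference between 8 h and 4 h. Herpud1 was 1.0 higher at 8 h than at 4 h on the log2 scale (limma adjusted p = 0.0249). Its arrays at 4 h read 9.04, 8.89 and 9.17. Creld2 was 1.203 higher (limma adjusted p = 0.0372), with 7.94, 7.63 and 8.05 at 4 h. The step of Herpud1 had an adjusted p between 0.00981 and 0.368 when 1 array of these groups was left out, and that of Creld2 between 0.00877 and 0.368. In these fits the step was 0.90 to 1.10 for Herpud1 and 1.06 to 1.40 for Creld2, higher at 8 h in each.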

How the results depend on the processing

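The count of 75 calls stayed within 1.5 times under 13 of 17 alternatives, and no called gene changed direction under any of them. The exceptions were the 6 arrays fitted alone (14 calls, 11 higher and 3 lower), a 2-fold minimum (23, 19 and 4), and 2 of the left-out arrays. Leaving out each array gave 16 to 69 calls, 14 to 44 higher and 2 to 30 lower. The fewest calls came without replicate 3 at 4 h (16, 14 and 2), and the next fewest without untreated replicate 2 (40, 23 and 17). Without untreated replicate 1 there were 31 higher and 30 lower. The share of calls that were higher was 62.7%, and 67.6% and 68.6% with median centring and quantile normalization. Apart from the 2-fold minimum and the left-out arrays, 13 genes kept their call under every setting in which they were tested; Mx1 and Gad1 among them were not tested with the dimmest 40% of probe sets removed. For 4 h against 2 h, array weights gave 1 call and leaving out 1 array 0 to 30. For 8 h against 4 h the 2 calls became 1 with median centring and 1 with a replicate block. They became 0 with array weights, with only the compared arrays and with the Gapdh covariate, and 0 to 4 with 1 array left out. Whether replicate numbers pair the samples cannot be settled with 3 arrays a group. Same-numbered arrays deviated together with r = -0.151, -0.053 and 0.361, and arrays of different numbers with r between -0.275 and 0.3. The fit with a replicate block called 70 genes at 4 h, 65 of the 75 among them. The others were Rrp1b, Ctps, Mrps26, Grwd1, Ilvbl, Ubxn4, Pdx1, Trpc4ap, Pygo2 and Apba3. The causes of these differences were not tested. Levels near those of the bacterial controls limit what can be said of genes such as Gad1 at 4 h and Ak4 in untreated islets.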

Other observations

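The 47 genes that rose at 4 h had a median difference from untreated of 0.30 after 21 days of dosing, with single genes from -0.97 to 1.71. Both comparisons use the same untreated arrays, and the genes named here were picked out after their values had been seen, at both ends of that range. The lowest were Wwc1, Adsl, Bop1 and Grwd1. Bop1 averaged 8.24 ± 0.31 (SD, n = 3) in untreated islets, 9.21 ± 0.03 at 4 h and 7.47 ± 0.295 at 21 days. Its 21 day difference was -0.77 ± 0.14 (SE; limma adjusted p = 0.00106). Adsl averaged 8.87 ± 0.24, 9.84 ± 0.23 and 8.01 ± 0.19 in these groups, with a 21 day difference of -0.87 (limma adjusted p = 0.0143). Wwc1 averaged 7.71 ± 0.12, 8.50 ± 0.10 and 6.74 ± 0.10 (-0.97; limma adjusted p = 0.000621). Grwd1 averaged 6.00 ± 0.06, 6.63 ± 0.05 and 5.30 ± 0.06 (-0.70; limma adjusted p = 0.00231). Second probe sets of Bop1, Grwd1 and Wwc1 differed the other way at 21 days, by 0.50 ± 0.19 (SE; limma adjusted p = 0.0747), 0.28 ± 0.19 (limma adjusted p = 0.349) and 0.14 ± 0.12 (limma adjusted p = 0.493). Mxi1, Slc6a15 and Gmip, which also rose at 4 h, averaged 8.25 ± 0.27, 7.31 ± 0.30 and 9.50 ± 0.23 at 21 days, above their untreated means of 6.57, 5.59 and 7.98. The direct difference between 21 days and 4 h was not tested.

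Mx1 and Papss2 averaged 4.31 ± 0.10 and 5.40 ± 0.22 (SD, n = 3) at 21 days, below their 4 h means of 5.82 and 7.13. Gad1 averaged 7.05 ± 0.305 at 21 days, against 7.24 ± 0.24 untreated and 4.85 ± 0.675 at 4 h. Scd1, a fatty acid desaturase, read 9.76 in replicate 1 at 4 h and 7.84 and 7.33 in the other two, against 7.25 to 8.00 untreated (0.80 ± 1.07; limma adjusted p = 1). The neutrophil genes S100a8 and S100a9 read highest in untreated replicate 3 (8.78) and in replicate 1 at 4 h (7.49), respectively.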
